A study of Homo sapiens with 12 samples.

Results

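The genes described are 44 human DNA replication genes, chosen by symbol from origin licensing, the replicative helicase, the DNA polymerases, the sliding clamp and its loader, strand joining and nucleotide supply. All 44 were among the 25369 genes of the deposited table. All 44 were also among the 14627 genes tested, which had a normalized count of at least 10 in at least 3 of the 12 libraries. The rule for choosing them used symbols and no measured value, but it was set with earlier results of these data known.

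The study sequenced RNA that came down with a tagged piece of TNIP2, a ubiquitin-binding adaptor protein of NF-κB signalling. TNIP2 Pulldown is RNA recovered with the purified Halo fusion of TNIP2 residues 196 to 346, and TNIP2 Input is total RNA of the whole-cell extract from the same transfected cells. Control Pulldown is RNA recovered after the same purification from cells given the Halo tag alone, and Control Input is the total RNA of those cells. Each group had 3 libraries. All 4 groups came from transfected cells of the HEK293 human embryonic kidney lineage, named HEK293T in the sample labels and HEK293 in the protocols, so no group was untransfected. Only a fragment of TNIP2 was expressed, from a plasmid, and ribosomal RNA had been removed from every sample. Whether the 3 libraries of a group stem from separate transfections is not stated in the labels, and the p-values reflect library-to-library spread that could be technical.

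Recovered read totals ran between 10315853 and 29544654 in TNIP2 Pulldown, 8901053 and 16769483 in TNIP2 Input, 3591045 and 6405055 in Control Pulldown, and 13800283 and 20803887 in Control Input. The thinnest value of any of the 44 genes was about 106 reads, for TYMS in Control Pulldown library 3. TNIP2 itself had normalized counts of 51905, 69806 and 193013 in TNIP2 Pulldown, against 16750, 13318 and 46568 in TNIP2 Input. It had 1472, 309 and 391 in Control Pulldown and 278, 304 and 272 in Control Input, so Control Pulldown library 1 stood above the other 5 control libraries. Of 9 genes typical of HEK293 lines, 5 reached 100 normalized counts in every library, PAX2 and GATA3 being among those that did not. The 11 markers of blood, connective tissue, endothelium and liver reached at most 86, and CD3E and HBB were at 0 in every library. Their summed level was 167 to 206 in TNIP2 Pulldown, 119 to 149 in TNIP2 Input, 61 to 138 in Control Pulldown and 142 to 160 in Control Input.

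DNA replication begins when the origin recognition complex (ORC), with CDC6 and CDT1, loads the ring-shaped MCM2-7 helicase on DNA. The helicase is then activated by CDC45 and the GINS complex, and DNA polymerases alpha, epsilon and delta copy the strands, with PCNA as the sliding clamp, RFC as its loader and RPA coating single-stranded DNA. Cultured lines that divide fast carry these transcripts at high levels, and many of the genes are transcribed in a cell-cycle-dependent way under E2F factors. The measurement here is of their RNA, not of the proteins.

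In TNIP2 Pulldown the replication genes split in both directions. PCNA, MCM2, MCM10, RPA3, MCM7 and TYMS stood at 2.90 to 6.0 times their TNIP2 Input level, while POLD2, ORC4, CDC6, PRIM2 and POLA2 stood at 0.354 to 0.461 of it. Against TNIP2 Input, 16 of 44 genes were higher and 11 lower at an adjusted p under 0.05 (limma on log2(normalized count + 1), Benjamini-Hochberg over all genes tested). Over all genes tested 29.8% were higher and 28.3% lower, 58.1% in all, so the share of replication genes called, 61.4%, was near the background. Their median log2 difference was 0.02, beside 0.01 over all genes, and was -0.09 without TNIP2 Pulldown library 3. The split depended on the scaling between libraries. After quantile normalization 7 were higher and 17 lower, where 28% and 29.2% of all genes were, and the median was -0.27, beside -0.02 over all genes. With each library centred on ribosomal protein genes 6 were higher and 16 lower, where 15.8% and 42.6% of all genes were, and the medians were -0.49 for the 44 genes and -0.51 over all genes. These are relative levels, so a lower value means less of a transcript in the recovered RNA relative to the extract RNA. Amounts of RNA per cell were not measured.

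Against Control Pulldown 18 genes were higher and 11 lower, with 30.6% and 28.7% of all genes called in those directions. The median log2 difference was 0.18, beside 0.03 over all genes, and was -0.09 without TNIP2 Pulldown library 3. The counts were 9 higher and 14 lower after quantile normalization (28.5% and 30% of all genes), and 9 higher and 12 lower with ribosomal centring (19.3% and 37.8%). This comparison uses the same TNIP2 Pulldown libraries as the one against TNIP2 Input, so the 2 sets of calls are not independent. No replication gene was called in opposite directions in them. Without overlap between libraries, 14 genes were higher and 10 lower in TNIP2 Pulldown than in TNIP2 Input (29.4% and 28.1% of all genes), and 19 were higher and 11 lower than in Control Pulldown (31.5% and 29.5% of all genes).

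**Figure D1:**
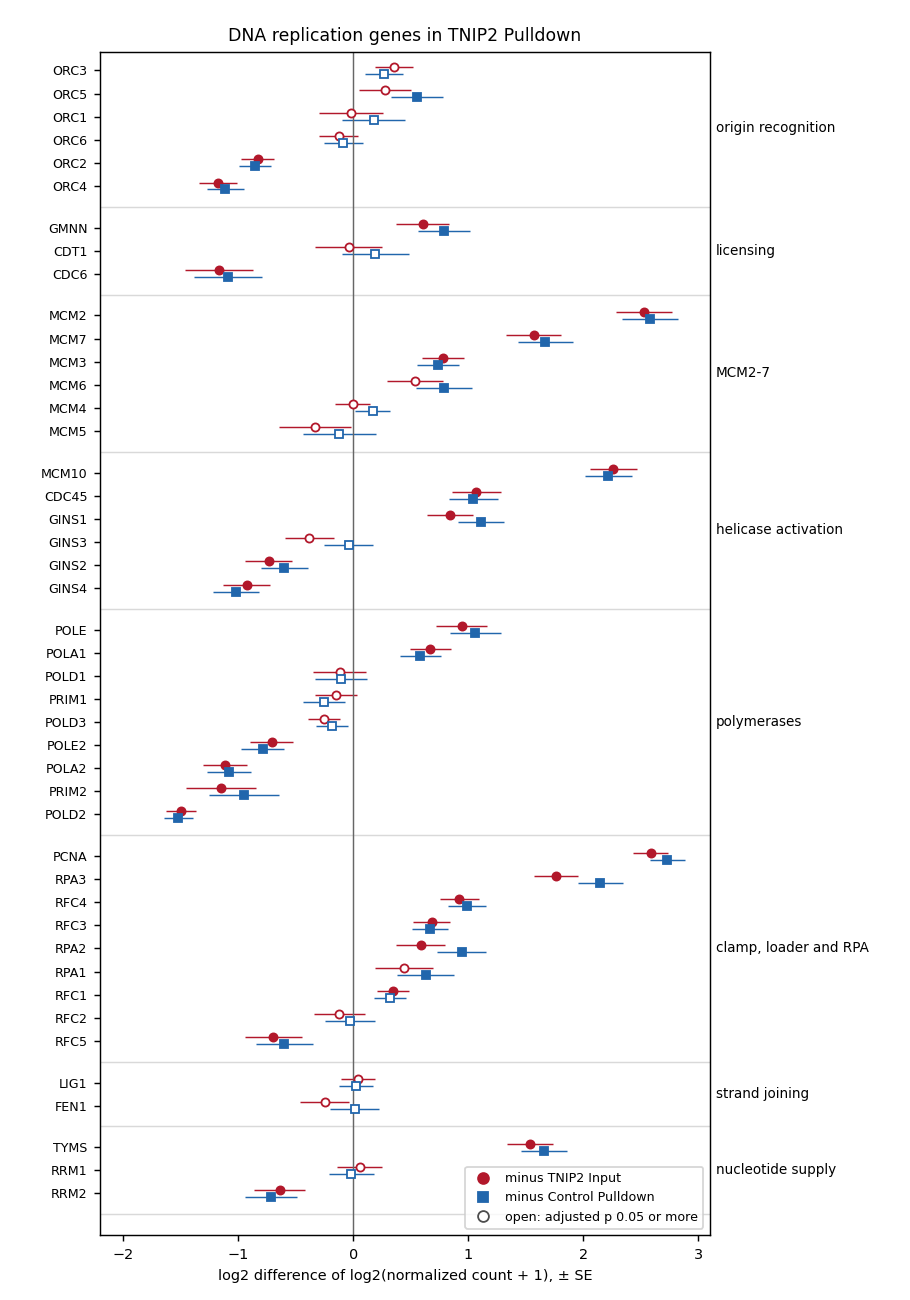
Log2 difference of each of the 44 DNA replication genes between TNIP2 Pulldown and TNIP2 Input (red circles) and between TNIP2 Pulldown and Control Pulldown (blue squares), with standard errors from the fit, grouped by role along the vertical axis. Filled points passed an adjusted p under 0.05: 16 red points on the right and 11 on the left, and 18 blue points on the right and 11 on the left, though RFC1 and RPA2 turned to values below 0 against TNIP2 Input after quantile normalization.

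The tag alone did not separate the same genes. In Control Pulldown against Control Input none of the 44 was called by limma (0.137% of all genes were), and voom on recovered reads also called none. An unadjusted limma p under 0.05 was found for 1 of the 44, beside 342 of the 14627 genes tested. The log2 differences ran from -0.55 for RPA3 to 0.20 for RPA1, with a median of -0.07. PCNA, ORC3, ORC6, GINS3 and RPA3 were lower in all 3 Control Pulldown libraries than in all 3 Control Input libraries, a pattern shown by 7.15% of all genes, and none was higher in all 3 (5.83% of all genes). Total RNA did not separate them between cells given the TNIP2 fragment and cells given the tag alone either. In TNIP2 Input against Control Input none was called by limma (0.00684% of all genes), and voom called none. None had an unadjusted limma p under 0.05, as 104 of the 14627 genes tested did. The differences ran from -0.24 for ORC3 to 0.38 for RPA1. There MCM6 was higher and ORC3 lower without overlap between libraries, as were 3.62% and 5.32% of all genes in those directions.

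The clamp gene gave the highest value of the 44. PCNA had normalized counts of 32145, 27664 and 25865 in TNIP2 Pulldown and 4529, 4199 and 5594 in TNIP2 Input. It had 4345, 4278 and 4218 in Control Pulldown and 5372, 4532 and 4852 in Control Input. The 3 TNIP2 Pulldown libraries lay far above all 9 others, which stayed within a narrow band. The log2 difference was 2.59 ± 0.15 (SE) against TNIP2 Input, a 6.0-fold level with an adjusted p of 1.5e-08, and 2.73 ± 0.15 against Control Pulldown with an adjusted p of 8.0e-09.

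The 5 genes of the clamp loader RFC differed among themselves. RFC4 and RFC3, a pair of its small subunits, were higher by 0.92 ± 0.17 and 0.68 ± 0.16 (log2, SE) against TNIP2 Input, with adjusted p of 0.00026 and 0.0019. With ribosomal centring neither was called, and RFC3 was not called after quantile normalization either. RFC1, the large subunit, was higher by 0.34 ± 0.14 with an adjusted p of 0.045, and had a value of -0.09 after quantile normalization and -0.17 with ribosomal centring. Its call was lost in 9 of the 12 fits without 1 library. RFC2 had a value of -0.12 and was not called, except lower after quantile normalization.

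RFC5 was the lowest of the clamp and loader genes. It had 1108, 1016 and 1704 in TNIP2 Pulldown and 1679, 1524 and 3181 in TNIP2 Input. It had 1979, 1915 and 1765 in Control Pulldown and 2355, 1895 and 2017 in Control Input. TNIP2 Pulldown library 3 overlapped the TNIP2 Input libraries, and both library 3 values were the highest of their groups. The difference against TNIP2 Input was -0.69 ± 0.25 with an adjusted p of 0.026. The call did not hold without TNIP2 Input library 3 (log2 -0.36, adjusted p 0.13), TNIP2 Pulldown library 1 (-0.61, 0.085) or TNIP2 Pulldown library 2 (-0.55, 0.11).

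Of the RPA subunits, RPA3, the smallest, had 4076, 3529 and 2786 normalized counts in TNIP2 Pulldown and 1031, 806 and 1232 in TNIP2 Input. It had 696, 775 and 849 in Control Pulldown and 1364, 1005 and 1041 in Control Input. TNIP2 Pulldown stood above every other library, and the Control Pulldown libraries were the lowest or near the lowest of the 12. The log2 difference was 1.76 ± 0.19 against TNIP2 Input (adjusted p 2.4e-06) and 2.15 ± 0.19 against Control Pulldown (3.5e-07). RPA2 was higher by 0.59 ± 0.21 against TNIP2 Input (adjusted p 0.028) and by 0.94 ± 0.21 against Control Pulldown (0.0015). Its call against TNIP2 Input did not hold without TNIP2 Input library 1 (0.50, 0.10), TNIP2 Input library 2 (0.42, 0.13) or TNIP2 Pulldown library 3 (0.47, 0.082), and its value was -0.03 after quantile normalization. RPA1, the largest subunit, was not called against TNIP2 Input (log2 0.44, adjusted p 0.14). It was called against Control Pulldown at an adjusted p of 0.041, with a p of up to 0.51 under the alternatives. The per-library values of RPA3, and those of MCM7 and CDC6 below, were picked after they had been seen.

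In the helicase ring MCM2-7, 3 subunits were higher against TNIP2 Input and none lower, although MCM5 was called lower with the replicate number as a block and MCM4 and MCM5 after quantile normalization. MCM2 had 22587, 23209 and 34183 normalized counts in TNIP2 Pulldown and 3980, 3414 and 6859 in TNIP2 Input. It had 4917, 3945 and 4301 in Control Pulldown and 5537, 4481 and 3921 in Control Input. All 3 TNIP2 Pulldown libraries were above the other 9, and library 3 was the highest of both TNIP2 groups. The difference against TNIP2 Input was 2.53 ± 0.24 (SE), a 5.77-fold level, with an adjusted p of 6.7e-07.

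MCM7, another subunit of the ring, had 15346, 13983 and 25945 in TNIP2 Pulldown and 5320, 4773 and 8414 in TNIP2 Input. It had 6006, 5481 and 5258 in Control Pulldown and 6840, 5881 and 5200 in Control Input. The TNIP2 Pulldown libraries again lay above all the others, with a difference of 1.57 ± 0.24 against TNIP2 Input (adjusted p 5.6e-05). MCM7 overlaps AP4M1, a gene of a vesicle coat, which was at 47, 50 and 65 normalized counts in TNIP2 Pulldown and at 137, 152 and 148 in TNIP2 Input. MCM3 was higher by 0.78 ± 0.18 (adjusted p 0.0020), a call that was lost after quantile normalization and with ribosomal centring.

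MCM5 was the lowest of the ring. It had 2743, 2330 and 5046 in TNIP2 Pulldown and 3235, 2835 and 7033 in TNIP2 Input. It had 4044, 3121 and 3278 in Control Pulldown and 4186, 3506 and 3053 in Control Input. Each TNIP2 Pulldown library was below the TNIP2 Input library of the same number, but the groups overlapped because both libraries numbered 3 were high. The difference of -0.33 ± 0.32 was not called (adjusted p 0.38), whereas with the replicate number as a block it was called lower, at an adjusted p of 0.030.

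MCM6 was not called against TNIP2 Input (log2 0.54, adjusted p 0.069), but was called higher with the replicate block (0.019) and without TNIP2 Pulldown library 2 (log2 0.81, adjusted p 0.0074). It was higher against Control Pulldown by 0.79 ± 0.24 (adjusted p 0.011; 0.054 without Control Pulldown library 3, 0.22 with quantile normalization and 0.32 with ribosomal centring). MCM4 had log2 differences of 0.00 and 0.17 in the 2 comparisons and was called in neither, whereas after quantile normalization it was called lower in both. Per transcript length, the mean levels of the 6 subunits ran from 62.9 FPKM (MCM6) to 668 FPKM (MCM2) in TNIP2 Pulldown, a 10.6-fold spread, against 40.5 FPKM (MCM6) to 151 FPKM (MCM5) in TNIP2 Input, a 3.73-fold spread.

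Among the genes of helicase activation, MCM10, a replication initiation factor that binds the helicase, had 8440, 8781 and 12030 normalized counts in TNIP2 Pulldown and 1742, 1623 and 2872 in TNIP2 Input. It had 2231, 2024 and 1965 in Control Pulldown and 2285, 2008 and 1918 in Control Input. The lowest TNIP2 Pulldown library was above the highest of the other 9. The difference against TNIP2 Input was 2.26 ± 0.20 (adjusted p 4.2e-07). CDC45, a core part of the active helicase, was higher by 1.07 ± 0.21 (adjusted p 0.00060), but not with quantile normalization or ribosomal centring.

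The 4 GINS subunits lay on both sides of TNIP2 Input, although with quantile normalization or ribosomal centring only lower ones were called. GINS1 was higher by 0.84 ± 0.20 against TNIP2 Input (adjusted p 0.0021) and by 1.11 ± 0.20 against Control Pulldown (0.00022); the call against TNIP2 Input was lost under both other scalings. GINS2 was lower by a log2 difference of -0.73 ± 0.20 (adjusted p 0.0062). GINS3 had -0.38 and was not called (adjusted p 0.13; 0.034 with the replicate block and 0.017 with ribosomal centring).

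GINS4 was the lowest of this role. It had 447, 274 and 440 in TNIP2 Pulldown and 657, 794 and 713 in TNIP2 Input. It had 619, 779 and 927 in Control Pulldown and 702, 708 and 783 in Control Input. No TNIP2 Pulldown library reached the lowest of the others. The difference was -0.93 ± 0.20 against TNIP2 Input (adjusted p 0.0011) and -1.02 ± 0.20 against Control Pulldown (0.00050).

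In the origin recognition complex 2 of 6 subunits were lower against TNIP2 Input and none higher on the deposited scale with all libraries. ORC3 or ORC5 was called higher under some alternatives given below, and ORC6 was called lower with ribosomal centring. ORC4 had 392, 429 and 392 normalized counts in TNIP2 Pulldown and 812, 799 and 1172 in TNIP2 Input. It had 934, 865 and 826 in Control Pulldown and 923, 807 and 912 in Control Input. Every TNIP2 Pulldown library had a lower count than every other library. The difference was -1.17 ± 0.16 (adjusted p 2.2e-05) against TNIP2 Input and -1.11 ± 0.16 (3.5e-05) against Control Pulldown.

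ORC2 was lower by a log2 difference of -0.83 ± 0.14 (adjusted p 0.00015), at 444 to 460 normalized counts in TNIP2 Pulldown and 789 to 816 in TNIP2 Input. ORC1 and ORC6 had differences of -0.02 and -0.13 and were not called. ORC3 had 0.36 (adjusted p 0.075; 0.038 with the replicate block, 0.037 without TNIP2 Input library 3, 0.041 without both TNIP2 libraries numbered 3 and 0.0092 without TNIP2 Pulldown library 2). ORC5 had 0.28 against TNIP2 Input (adjusted p 0.31; 0.017 without TNIP2 Pulldown library 2). It was called higher against Control Pulldown at 0.56 ± 0.23, with an adjusted p of 0.047 that ranged up to 0.65 under the alternatives.

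Of the licensing factors, CDC6, the ATPase that works with ORC to load the ring, was lower. It had 1045, 804 and 1715 normalized counts in TNIP2 Pulldown and 2099, 1800 and 4299 in TNIP2 Input. It had 2715, 2349 and 2164 in Control Pulldown and 2836, 2270 and 2390 in Control Input. The groups did not overlap, although library 3 was the highest of both TNIP2 groups. The difference was -1.16 ± 0.30 against TNIP2 Input (adjusted p 0.0036). CDT1, the partner of CDC6 in loading, had -0.04 and was not called.

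GMNN encodes geminin, the inhibitor of CDT1. It had 2347, 2139 and 3460 in TNIP2 Pulldown and 1444, 1349 and 2540 in TNIP2 Input. It had 1526, 1537 and 1437 in Control Pulldown and 1759, 1406 and 1586 in Control Input. TNIP2 Pulldown was above all 6 control libraries, but TNIP2 Input library 3 lay inside its range. The difference against TNIP2 Input was 0.60 ± 0.23 (adjusted p 0.034) and did not hold without TNIP2 Input library 1 (0.48, 0.13), TNIP2 Input library 2 (0.44, 0.15) or TNIP2 Pulldown library 3 (0.39, 0.13). Against Control Pulldown it was 0.79 ± 0.23 (adjusted p 0.0079). Under quantile normalization and ribosomal centring the adjusted p was 0.65 and 0.82 against TNIP2 Input, and 0.23 and 0.28 against Control Pulldown, so neither call held.

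**Figure D2:**
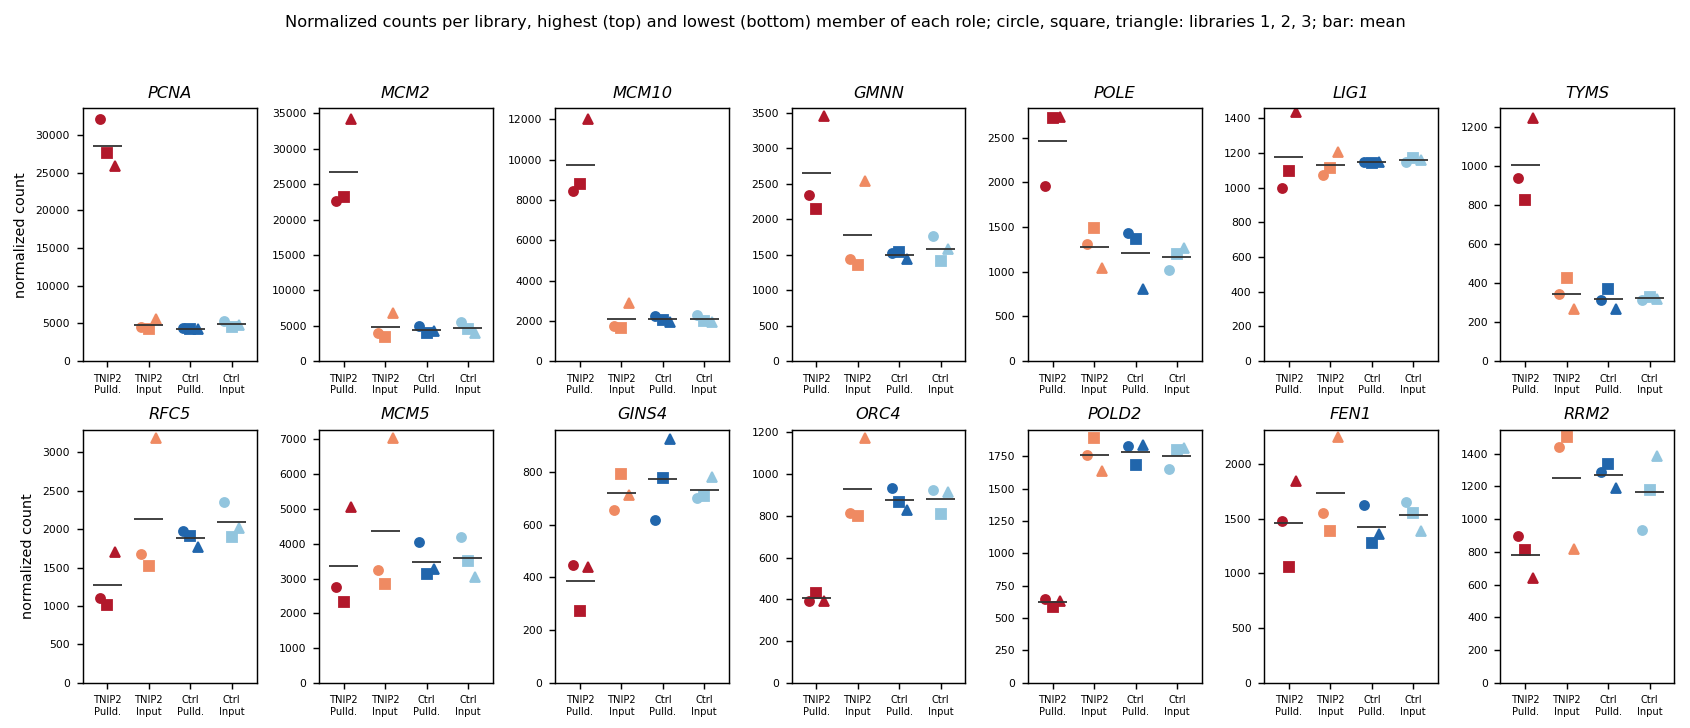
Normalized count per library (vertical axis, starting at 0, a separate scale for each gene) for the gene with the highest (top) and the lowest (bottom) log2 difference of each role, in TNIP2 Pulldown, TNIP2 Input, Control Pulldown and Control Input from left to right. Symbols mark library numbers and bars mark the mean of 3; PCNA lay between 25865 and 32145 in TNIP2 Pulldown, and POLD2 between 588 and 648.

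The polymerase genes gave 2 higher and 4 lower of 9 against TNIP2 Input, with calls in both directions within polymerases alpha and epsilon that were lower ones alone after quantile normalization or with ribosomal centring. POLE, the catalytic subunit of polymerase epsilon, had 1954, 2715 and 2732 normalized counts in TNIP2 Pulldown and 1311, 1486 and 1047 in TNIP2 Input. It had 1438, 1367 and 808 in Control Pulldown and 1023, 1195 and 1267 in Control Input. TNIP2 Pulldown was above all other libraries. The difference was 0.94 ± 0.22 (adjusted p 0.0020) against TNIP2 Input, lost under quantile normalization and ribosomal centring, and 1.06 ± 0.22 (0.00075) against Control Pulldown.

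POLE2, the accessory subunit of the same enzyme, was lower by a log2 difference of -0.71 ± 0.18 (adjusted p 0.0042). It was at 184, 183 and 221 in TNIP2 Pulldown and at 294, 293 and 379 in TNIP2 Input. Mean levels per length were 27.1 FPKM for POLE and 8.86 FPKM for POLE2 in TNIP2 Pulldown, against 14.1 FPKM for POLE and 14.5 FPKM for POLE2 in TNIP2 Input.

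POLD2, an accessory subunit of polymerase delta, was the lowest of the 44 genes in the comparison with TNIP2 Input. It had 648, 588 and 628 in TNIP2 Pulldown and 1757, 1886 and 1633 in TNIP2 Input. It had 1830, 1682 and 1839 in Control Pulldown and 1652, 1794 and 1812 in Control Input. The TNIP2 Pulldown libraries were tightly grouped and far below the other 9. The difference was -1.50 ± 0.13 (adjusted p 2.6e-07) against TNIP2 Input and -1.52 ± 0.13 (2.2e-07) against Control Pulldown. POLD1, the catalytic subunit, and POLD3 had -0.12 and -0.25 and were not called. POLD1 was called lower without TNIP2 Pulldown library 3 (adjusted p 0.046), and POLD3 was called lower after quantile normalization and with ribosomal centring.

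In the polymerase alpha-primase complex, POLA1, the catalytic DNA polymerase subunit, was higher by 0.67 ± 0.18 against TNIP2 Input (adjusted p 0.0046), but not after quantile normalization or with ribosomal centring. POLA2, its accessory subunit, was lower by a log2 difference of -1.12 ± 0.19 (adjusted p 0.00016), at 461, 405 and 750 in TNIP2 Pulldown and 1104, 1078 and 1208 in TNIP2 Input. PRIM2, the large primase subunit, was lower by -1.15 ± 0.30 (adjusted p 0.0046), and PRIM1, the catalytic primase subunit, had -0.15 and was not called, except lower with ribosomal centring (adjusted p 0.048). The per-library values of POLE2 and POLA2 were also picked after they had been seen.

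**Figure D3:**
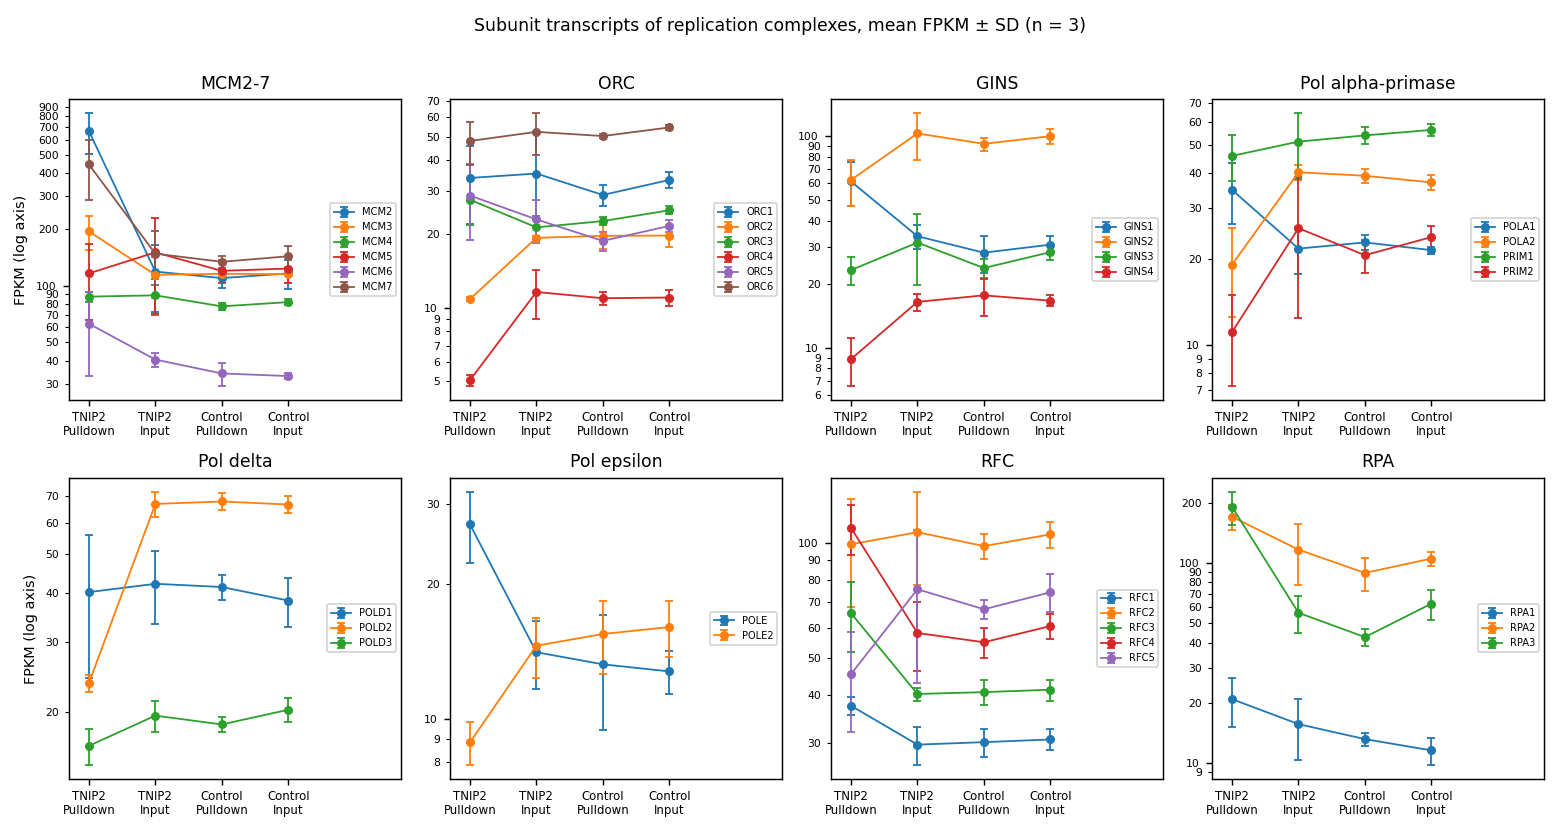
Mean FPKM ± SD (n = 3, log axis) of each subunit's transcript in 8 replication complexes, with TNIP2 Pulldown, TNIP2 Input, Control Pulldown and Control Input from left to right. Lines join the means of 1 gene; GINS, RFC, polymerase alpha-primase and polymerase epsilon held subunits called in both directions against TNIP2 Input on the deposited scale, and POLE was at 27.1 FPKM and POLE2 at 8.86 FPKM in TNIP2 Pulldown.

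Of the 8 complexes, 4 held subunits called in both directions against TNIP2 Input (GINS, RFC, polymerase alpha-primase and polymerase epsilon), 2 held only higher calls (MCM2-7 and RPA) and 2 only lower ones (ORC and polymerase delta). The number with calls in both directions was 2 after quantile normalization, 0 with ribosomal centring and 6 with the replicate block. Whether a complex differs in this from other sets of genes was not tested. Of the genes that join strands, neither was called on the deposited scale, while FEN1 was called lower against TNIP2 Input after quantile normalization (log2 -0.59, adjusted p 0.023) and with ribosomal centring (-0.76, 0.042). LIG1, DNA ligase I, had 999, 1098 and 1435 in TNIP2 Pulldown, 1072, 1111 and 1205 in TNIP2 Input, 1148, 1141 and 1149 in Control Pulldown, and 1145, 1171 and 1161 in Control Input, with a difference of 0.04 ± 0.15 against TNIP2 Input (adjusted p 0.82). FEN1, the flap nuclease of Okazaki fragments, had 1479, 1062 and 1845 in TNIP2 Pulldown, 1553, 1389 and 2250 in TNIP2 Input, 1624, 1280 and 1356 in Control Pulldown, and 1653, 1554 and 1385 in Control Input, with a difference of -0.25 ± 0.21 (0.33). The libraries of these 2 genes overlapped across the groups.

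Nucleotide supply gave 1 gene higher and 1 lower. TYMS, thymidylate synthase, had 939, 828 and 1248 normalized counts in TNIP2 Pulldown and 344, 427 and 268 in TNIP2 Input. It had 312, 369 and 268 in Control Pulldown and 316, 330 and 320 in Control Input. The lowest TNIP2 Pulldown library was above every other, and the difference was 1.54 ± 0.20 against TNIP2 Input (adjusted p 1.3e-05).

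TYMS overlaps the genes TYMSOS and ENOSF1 on the genome, and the strand setting of the counting is not given in the sources used here. ENOSF1 was at 153, 144 and 188 in TNIP2 Pulldown and 314, 362 and 322 in TNIP2 Input, while TYMSOS was at 385, 393 and 192 in TNIP2 Pulldown and 131, 89 and 62 in TNIP2 Input. One neighbour was thus lower and the other higher in TNIP2 Pulldown, and reads shared with TYMS cannot be told apart. Of the 44 genes, 23 overlap another RefSeq gene and 10 have a named pseudogene, PCNA, POLD2, RPA3 and TYMS among the latter. Against TNIP2 Input, the log2 difference was -1.57 for RAB23, which overlaps PRIM2, and -1.57 for WSB2, which overlaps RFC5. AKIRIN2, which overlaps ORC3, had 2.27, again on the side of its replication gene. On the opposite side lay GSE1 (1.90), which overlaps GINS2, and MBD5 (1.06), which overlaps ORC4. ACVR2A, also over ORC4, and PRPF38A, over ORC1, were not called. Shared reads cannot be told apart there either.

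RRM2, the small subunit of ribonucleotide reductase, had 896, 811 and 639 in TNIP2 Pulldown and 1437, 1500 and 816 in TNIP2 Input. It had 1286, 1335 and 1192 in Control Pulldown and 936, 1178 and 1387 in Control Input. TNIP2 Input library 3 fell within the TNIP2 Pulldown range. The difference was -0.64 ± 0.22 (adjusted p 0.023) and was not called without TNIP2 Input library 1 (-0.51, 0.099), TNIP2 Input library 2 (-0.48, 0.11) or TNIP2 Pulldown library 3 (-0.50, 0.077). RRM1, the large subunit, had 0.06 and was not called, but was lower at -0.47 with an adjusted p of 0.038 after quantile normalization.

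The sum of the 44 genes was 134624 to 182972 normalized counts in TNIP2 Pulldown, 67479 to 103068 in TNIP2 Input, 71304 to 77683 in Control Pulldown and 74417 to 83573 in Control Input. Abundant genes weigh most in this sum. PCNA had a mean of 28558 in TNIP2 Pulldown and 4774 in TNIP2 Input, and MCM2 26660 and 4751. Against TNIP2 Input 22 of the 44 log2 differences were above 0 and 22 below, with a median of 0.02. PCNA had the highest level per length in every group, at a mean of 1741 FPKM in TNIP2 Pulldown and 291 FPKM in TNIP2 Input. ORC4 had the lowest in every group, at 5.05 FPKM in TNIP2 Pulldown and 11.6 FPKM in TNIP2 Input. A relative length of each gene was inferred from the ratio of its normalized counts to its FPKM. Across the 44 genes the log2 difference against TNIP2 Input had a Spearman correlation of 0.01 with this length. With the Control Input FPKM it was 0.26. Across the 14627 genes tested the values were 0.22 and -0.13. These are descriptions over genes measured in the same libraries.

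Same-numbered libraries showed the split as ratios of TNIP2 Pulldown to TNIP2 Input. For 18 genes all 3 ratios were above 1 and for 16 all were below 1, with 38.5% and 37.0% of all genes on those sides. For PCNA the ratios were 7.10, 6.59 and 4.62, and for POLD2 0.369, 0.312 and 0.385. The Control Pulldown to Control Input ratios of PCNA were 0.809, 0.944 and 0.869, and those of POLD2 were 1.11, 0.938 and 1.01.

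**Figure D4:**
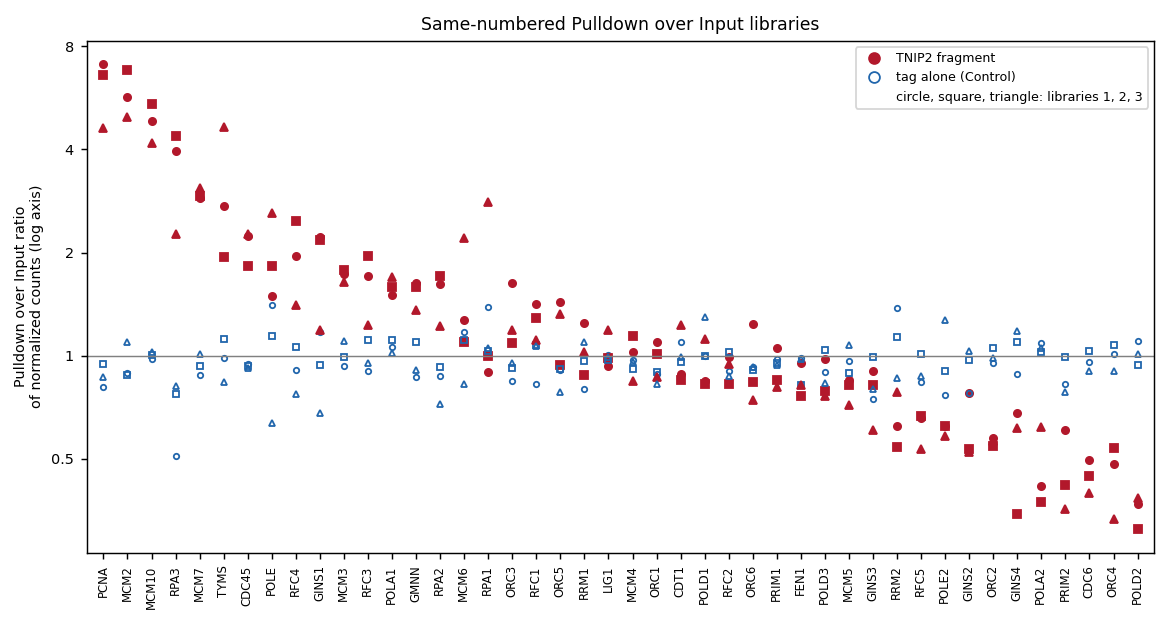
Ratio of normalized counts between same-numbered Pulldown and Input libraries (log axis) for the 44 genes, ordered by their log2 difference between TNIP2 Pulldown and TNIP2 Input. Filled red symbols are the TNIP2 fragment and open blue symbols the tag alone; the red ratios of 18 genes were all above 1 and those of 16 all below 1.

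The enrichment of TNIP2 Pulldown over its Input, minus that of Control Pulldown over its own, was called higher for 13 genes and lower for 6 (22.6% and 20.2% of all genes, 42.8% in all). The same 13 and 6 were called in that direction in all 3 comparisons that hold TNIP2 Pulldown, which share its libraries. The difference also contains the comparison against TNIP2 Input, so this agreement is not separate support. The share of all genes called in all 3 was not counted. With the replicate number as a block the counts were 16 higher and 11 lower (28.1% and 25% of all genes), with quantile normalization 6 and 10 (20% and 21.6%), and with ribosomal centring 4 and 11 (9.55% and 35%). Against TNIP2 Input, 15 genes were called in the same direction under all 22 alternatives tried: PCNA, MCM2, MCM7, MCM10, RPA3 and TYMS were higher, and ORC2, ORC4, CDC6, GINS2, GINS4, POLA2, PRIM2, POLD2 and POLE2 were lower. How many of all genes tested would pass the same rule was not counted, while 58.1% of them were called in the main fit.

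Library 3 of both TNIP2 groups stood apart for these genes. TNIP2 Pulldown library 3 was the highest of its group for 29 of the 44, against 36.4% of all genes, with a median log2 excess of 0.43 over the mean of libraries 1 and 2. TNIP2 Input library 3 was the highest of its group for 37, against 42.7% of all genes, with a median excess of 0.48. The medians over all genes were -0.07 and -0.01. In Control Pulldown and Control Input library 3 was the highest for 12 genes each, against 36.2% and 34.4% of all genes. Control Pulldown library 3 was the lowest of its group for 25 of the 44, against 36.4% of all genes, with a median log2 difference of -0.09 from libraries 1 and 2.

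Among the genes that went the other way in TNIP2 Input, RPA1 was lower in library 3 by a log2 difference of -0.94, RRM2 by -0.85, TYMS by -0.51 and POLE by -0.41. The TNIP2 transcript was also highest in library 3 of both TNIP2 groups. Its part in the pattern was not tested. Without both TNIP2 libraries numbered 3, 17 genes were higher and 11 lower against TNIP2 Input (32.9% and 31% of all genes), and 18 were higher and 14 lower against Control Pulldown (35.2% and 32.8%).

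**Figure D5:**
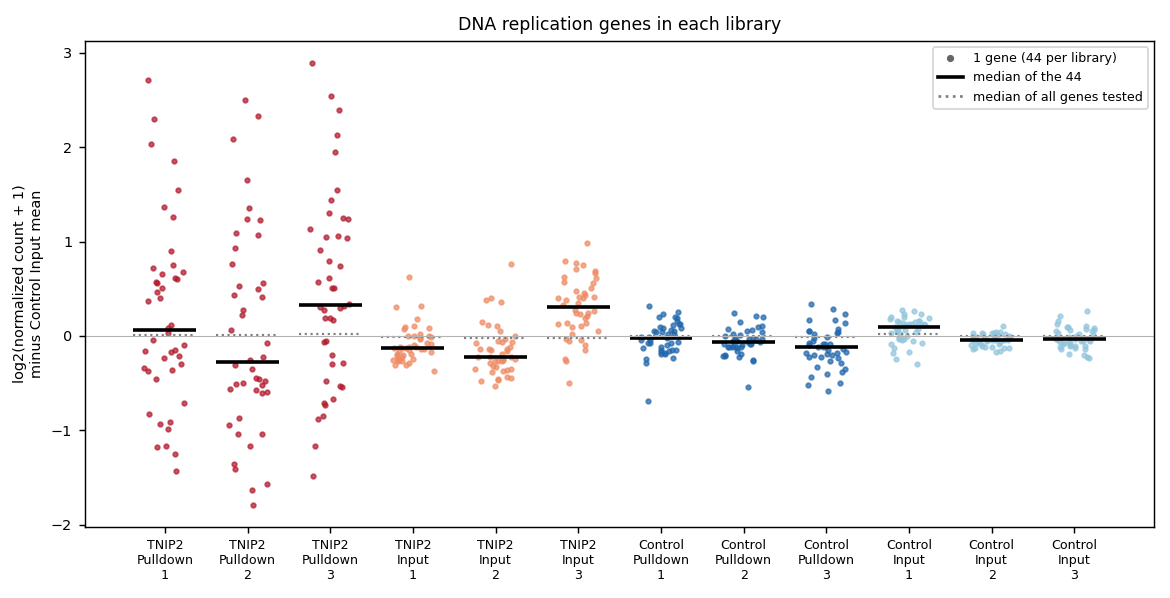
Log2(normalized count + 1) of each of the 44 genes in each of the 12 libraries, minus the gene's mean over Control Input. Black bars are the median of the 44 and dotted bars the median of all genes tested; the black bar was at 0.33 in TNIP2 Pulldown library 3 and 0.30 in TNIP2 Input library 3, against -0.28 and -0.22 in the libraries numbered 2 of those groups.

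Other replication genes, on a list of 47 that were all tested, gave 14 higher and 19 lower against TNIP2 Input, 29.8% and 40.4% of the list beside 29.8% and 28.3% of all genes, with a median of -0.26. Against Control Pulldown 13 were higher and 18 lower, 27.7% and 38.3% of the list beside 30.6% and 28.7% of all genes. CHAF1A, the large subunit of the chromatin assembly factor that follows the fork, had 5226, 5540 and 5710 normalized counts in TNIP2 Pulldown and 1399, 1519 and 1351 in TNIP2 Input, a difference of 1.95 ± 0.13 (adjusted p 2.6e-08). The next highest were RNASEH2B, of the nuclease that removes ribonucleotides, at 1.41, TOPBP1, a scaffold of origin firing and checkpoint signalling, at 1.31, and TOP2A, the topoisomerase that untangles copied DNA, at 1.28.

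The lowest of that list was TK1, thymidine kinase of the salvage pathway, with 221, 168 and 451 in TNIP2 Pulldown and 1014, 898 and 1558 in TNIP2 Input, a difference of -2.13 ± 0.30 (adjusted p 2.4e-05). DCTPP1, a pyrophosphatase of the nucleotide pool, had -1.68, TIPIN, a fork protection factor, -1.58, and CDC7, the kinase that triggers origin firing, -1.42. TK1 and TYMS, which both feed the thymidine nucleotide pool, thus lay on opposite sides of TNIP2 Input.

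Promoters were examined because the replication genes are known for shared E2F control, and those of PCNA, MCM7 and MCM6 are shown because the first 2 were higher against TNIP2 Input while MCM6, with the most matches, was not called. RefSeq promoters (GRCh38.p14), running from 250 bases before to 50 bases after the start, were matched for 38 of the 44 genes and searched on both strands for the letters TTTCCCGC, TTTCGCGC, TTTGCCGC and TTTGGCGC, which are forms of the E2F motif and may overlap each other. The 200 bases before each start read as follows, with matches in capitals. All 3 are on the minus strand, PCNA at chr20:5126623-5126822, MCM7 at chr7:100101398-100101597 and MCM6 at chr2:135876444-135876643.
PCNA: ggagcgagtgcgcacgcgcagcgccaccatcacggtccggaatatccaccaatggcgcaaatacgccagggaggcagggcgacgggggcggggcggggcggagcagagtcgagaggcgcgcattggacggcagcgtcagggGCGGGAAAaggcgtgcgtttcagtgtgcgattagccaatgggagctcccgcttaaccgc
MCM7: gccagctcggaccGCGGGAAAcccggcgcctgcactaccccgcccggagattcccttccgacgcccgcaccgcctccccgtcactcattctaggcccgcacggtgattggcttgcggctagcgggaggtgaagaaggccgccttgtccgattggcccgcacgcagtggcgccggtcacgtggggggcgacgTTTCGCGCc
MCM6: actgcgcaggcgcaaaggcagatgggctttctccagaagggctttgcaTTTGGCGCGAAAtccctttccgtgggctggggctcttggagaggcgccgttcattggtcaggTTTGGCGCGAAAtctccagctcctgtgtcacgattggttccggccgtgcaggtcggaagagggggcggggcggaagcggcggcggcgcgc

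The match of PCNA begins 59 bases before the start, those of MCM7 187 and 9 bases before it, and those of MCM6 form overlapping pairs at 152 and 148 and at 90 and 86 bases before it. At least 1 match was present in the whole window of 18 of the 38 promoters (47.4%; MCM2, CDC6 and GINS1 only past the start), beside 3.31% of all 35116 promoters in the table and 5.30% of the 10511 tested genes with a promoter. The median log2 difference against TNIP2 Input was 0.60 for the 18 genes with a match and -0.12 for the 20 without, beside 0.04 and 0.01 for all tested genes with and without one. These medians are on the deposited scale only. Among genes called under all alternatives, PCNA, MCM2, MCM7 and TYMS were higher and had a match, while MCM10 was higher and had none. CDC6, GINS2, POLA2 and POLE2 were lower and had a match, while ORC2, ORC4, PRIM2 and POLD2 were lower and had none. A relation between matches and recovery was not tested. The excess in TNIP2 Input library 3 had medians of 0.36 with a match and 0.52 without. A match is a run of letters in this window, not a site, and binding to DNA was not measured.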

How the data were processed

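RNA from 12 libraries was measured: 3 each of TNIP2 Pulldown, TNIP2 Input, Control Pulldown and Control Input. The authors deposited normalized counts per gene, rounded to whole numbers, which are treated here as a score because library factors had already been divided out, and FPKM values; the submitters' processing notes list TopHat2 2.0.14, DESeq2 1.6.3 and hg19 without their roles. Which read counter, strandedness and gene models the authors used is not given in the sources used here. Column names were matched to groups by their letters for Control, Input and Pulldown, the remaining letter being that of TNIP2.

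Log2(normalized count + 1) was fitted with limma 3.58.1 in R 4.3.3 (lmFit, eBayes with trend, 1 mean per group), genes needing 10 or more in at least 3 libraries; p-values were Benjamini-Hochberg adjusted over 14627 genes and called under 0.05. The fit was also run on simulated data with few genes changed and libraries drawn independently. That run cannot show how calls behave with wide change or with effects shared between libraries. Whole reads were recovered from the steps of low FPKM values (140 to 1465 values per library, 100% whole within 0.1 reads), which gave 3591045 to 29544654 reads per library, and 1 read was worth 0.510 to 2.86 normalized counts. Deviations from the group means correlated at 0.37, 0.46 and 0.50 between same-numbered TNIP2 Pulldown and TNIP2 Input libraries. For Control Pulldown with Control Input they correlated at 0.08, 0.07 and 0.08. Library numbers were taken as pairing TNIP2 Pulldown with TNIP2 Input in the same-numbered ratios and in the alternative with a replicate block. The main fit did not use the pairing, so its standard errors and p-values are unpaired.

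The genes and lists were chosen with earlier results of these data known. Per-library values are given for the highest and the lowest gene of each role, and log2 differences for the 4 highest and 4 lowest called genes of the other replication genes; exceptions are named. Alternatives were another pseudocount, filter, scaling, unit, model and block, and leaving out libraries.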

Additional observations from a re-analysis of the deposited data

Results flagged for a closer look

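For 19 genes the Pulldown over Input enrichment differed between the TNIP2 fragment and the tag alone, as a difference of log2 enrichments with an adjusted p under 0.05 in limma. They were 43.2% of the 44, beside 42.8% of all genes tested. PCNA had the highest value, at 2.78 ± 0.21 (SE, adjusted p 1.2e-06), followed by MCM2 at 2.60 ± 0.34 (4.1e-05), RPA3 at 2.31 ± 0.27 (1.7e-05) and MCM10 at 2.26 ± 0.29 (3.4e-05). RPA3 differed more here than against TNIP2 Input alone, because its Control Pulldown level was below its Control Input level by a log2 difference of -0.55.

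The other genes above 0 were MCM7 at 1.66, TYMS at 1.58, CDC45 at 1.17, RFC4 at 1.06, GINS1 at 0.98, POLE at 0.93, RPA2 at 0.84, MCM3 at 0.77 and RFC3 at 0.70. POLD2 had the lowest value, at -1.52 ± 0.18 (adjusted p 1.9e-05). The others below 0 were POLA2 at -1.20, ORC4 at -1.17, CDC6 at -1.11, GINS4 at -0.99 and ORC2 at -0.83. PCNA, MCM2, MCM10, RPA3, ORC2, ORC4, GINS4, POLA2 and POLD2 were called in all 22 settings that gave this comparison, the main fit among them. The alternative fitted on only the groups compared cannot give it. How many of all genes tested would pass the same rule was not counted. The call for CDC6 had an adjusted p of 0.044 and did not hold in 9 of the 12 fits without 1 library, reaching 0.12 without TNIP2 Pulldown library 2. In the fits without 1 library, the call for RPA2 was lost in 6 of the 12, that for POLE in 5, that for MCM3 in 4 and that for RFC3 in 2.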

How the results depend on the processing

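Counts of genes called depended on the scaling between libraries, on the block and on the libraries numbered 3. Quantile normalization gave 7 higher and 17 lower against TNIP2 Input, 9 higher against Control Pulldown with a median of -0.17, and 6 higher and 10 lower for the difference of enrichments. Centring on 76 ribosomal protein genes gave 6 higher against TNIP2 Input with a median of -0.49, 9 higher against Control Pulldown with a median of -0.20, and 4 higher and 11 lower for the difference of enrichments with a median of -0.52; all genes then had medians of -0.51, -0.34 and -0.60. The median of Control Pulldown against Control Input became 0.040. Which scaling fits these libraries was not tested. Reversed values were those of RFC1 against TNIP2 Input (-0.087 with quantile normalization, -0.17 with ribosomal centring), RPA2 (-0.026) and RRM1 (-0.47) against TNIP2 Input with quantile normalization, and MCM4 with quantile normalization (-0.46 against Control Pulldown, -0.60 for the difference of enrichments).

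The replicate number was also used as a block within each construct, which follows the pairing of the TNIP2 libraries. Against TNIP2 Input 18 genes were then higher and 13 lower, adding MCM5, MCM6, ORC3 and GINS3. Against Control Pulldown the block instead joined same-numbered libraries across the constructs, and no call changed. Deviations of same-numbered TNIP2 Pulldown and Control Pulldown libraries correlated at 0.01, 0.06 and -0.02, so that fit does not bear on the TNIP2 pairing. For the difference of enrichments the block within each construct gave 16 higher and 11 lower. Without both TNIP2 libraries numbered 3, 10 were lower for that difference. Leaving out each library in turn gave 13 to 19 higher, 10 to 11 lower and medians of -0.09 to 0.20 against TNIP2 Input, 15 to 19, 8 to 11 and -0.09 to 0.29 against Control Pulldown, and 11 to 15, 5 to 8 and -0.01 to 0.24 for the difference of enrichments. In the control comparison it gave 0 calls and medians of -0.10 to -0.03, and between the Inputs 0 calls and medians of -0.16 to 0.13. Control Pulldown was the shallowest group, with 3591045 reads in its thinnest library, which limits small differences there.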
